A study of Mus musculus with 6 samples.

Results

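Axon guidance ligands and their receptors were followed across the cell classes and genotypes of the embryonic mouse retina. The members were all genes whose symbol in the deposited gene table named a semaphorin of classes 3 to 7, a plexin, a neuropilin, a Slit, a Robo, an ephrin, an Eph receptor, a netrin, an Unc5 receptor or Dcc. The rule used names only and no measured value. It found 73 entries of 27998 genes, of which 36 were ligands, 34 were receptors and 3 were antisense transcripts of Plxna4. The ligands comprised 20 semaphorins (7 of class 3, 6 of class 4, 2 of class 5, 4 of class 6 and 1 of class 7), 5 ephrin-A genes, 3 ephrin-B genes, 5 netrin entries (Ntn5 had 3 identifiers) and 3 Slits. The receptors comprised 9 EphA, 5 EphB, 9 plexin, 4 Robo, 4 Unc5 and 2 neuropilin genes and Dcc.

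Droplet single-cell RNA-seq of mouse retinas at embryonic day 14 counted unique molecular identifiers (UMIs) at the 3' end of transcripts. The 6 libraries formed 3 groups of 2. The first was labelled Bax het Atoh7 null (Bax heterozygous, Atoh7 null) and is called Bax het here, although it lacked Atoh7 as well. The second was labelled Bax null, with no change of Atoh7 named, and is called Bax-only null. The third was labelled Bax null Atoh7 null and is called double null. Atoh7 encodes a transcription factor needed for most ganglion cells to form, and the product of Bax drives apoptosis. In no group were both genes intact, and every group carried at least 1 Bax mutation. The labels did not say whether replicates came from separate animals, whether retinas were pooled, or how the alleles were made. The p-values therefore measure only the spread between these libraries, which may be technical.

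The authors' 5 cell types were used as deposited: retinal progenitor cells, neurogenic cells, ganglion cells, cones and horizontal cells. Cells labelled horizontal had a mean of 1500 CPM (UMIs scaled to a class total of 1000000) for Onecut2 and 647 for Tfap2b, which horizontal cells make, but Onecut2 was also at 959 CPM in ganglion-labelled cells and 537 in cones. They had 412 CPM of Ptf1a, which precursors of horizontal and amacrine cells share, 223 of Prdm13, an amacrine gene, and 29.2 of Lhx1, a horizontal cell gene. The name horizontal is therefore the label of the authors, for cells that also held amacrine markers. The 6 libraries held 67050 cells and between 22463515 and 66594431 UMIs each. Median UMIs per cell were 5660.5 and 6804 in the Bax-only null libraries and between 1634 and 2632 in the other 4, and mitochondrial genes took 3.8 to 3.9% of UMIs against 1.06 to 1.15%. The 2 Bax-only null libraries thus stood apart from the other 4 in every class, and a batch and the genotype cannot be told apart in any comparison against them. Atoh7 was at 5.96 and 6.88 CPM in Bax-only null and at 0 UMIs in the 4 libraries labelled Atoh7 null. Bax was at 144 and 108 CPM in Bax het, 17.1 and 15 in Bax-only null, and 47.7 and 11 in the libraries labelled double null, so the library labelled double null replicate 1 lay above both Bax-only null libraries, against its label. The labels do not give the deleted part of Bax. These 2 libraries labelled double null also shared 2596 cell barcodes, or 17.624% of the barcodes of replicate 1 and 21.97% of those of replicate 2. Of the shared barcodes, 89.45% had the same class in both libraries, whereas other pairs of libraries shared 1.359 to 2.094% of barcodes with 34.31 to 45.99% in the same class. At shared barcodes the log2 ratio of UMIs, replicate 1 to replicate 2, had 10th and 90th percentiles of -1.454 and -1.297. For the 2 Bax-only null libraries these were -1.464 and 0.667. Whether the 2 libraries labelled double null held the same cells was not tested, so they may not be independent. Results that rest on these libraries are therefore also given without replicate 1 and with the shared barcodes left out.

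Axon guidance molecules steer the growth cones of ganglion cell axons out of the eye and to their targets in the brain. Netrin acts through Dcc as an attractant and through Unc5 receptors as a repellent, Slits repel through Robo receptors, and class 3 semaphorins act through neuropilins and plexins. Ephrins and Eph receptors signal at contacts between cells and are graded across the retina, which gives axons from different positions different targets. EphA and ephrin-A molecules are known for the nasal to temporal axis, and EphB and ephrin-B molecules for the dorsal to ventral axis. Ephb1 is known for ganglion cells whose axons stay on the same side of the brain, where the transcription factor Zic2 is also made.

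The position of a progenitor cell in the retina was read from marker genes that are not members. Dorsal cells had at least 1 UMI of Tbx5 and none of Vax2, and ventral cells had the reverse. Tbx5 and Vax2 encode transcription factors of the dorsal and the ventral retina. Between 76 and 168 dorsal cells and between 936 and 2014 ventral cells per library were summed and compared within libraries, so that library, genotype and batch were shared by each pair. Dorsal cells had more Unc5b, Efnb1 and Efnb2, and ventral cells had more Ephb1 and Ephb2. Of 27 members tested with the edgeR quasi-likelihood test, 8 were higher and 2 were lower on the dorsal side at an adjusted p under 0.05, which is 10 in all. Of all 9307 genes tested 11.3% were called, 4.54% higher and 6.72% lower. The median log2 difference was 0.45 over the members tested and -0.01 over all genes tested.

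Unc5b, a netrin receptor, was at 54.0 and 62.3 CPM in dorsal cells of Bax het, 150.1 and 140.7 in Bax-only null, and 77.8 and 16.9 in the libraries labelled double null. In ventral cells of the same libraries it was at 4.22, 4.78, 6.75, 6.14, 7.13 and 7.32 CPM. The dorsal values differed widely among libraries but lay above every ventral value. The log2 difference was 4.04 (SE 0.149, edgeR adjusted p = 2.25e-60). The dorsal side, where Unc5b was high, helped it pass the filter on low counts, so this p-value is descriptive. Efnb1, a transmembrane ligand of EphB receptors, was at 40.8 ± 8.74 CPM in dorsal and 8.30 ± 1.27 CPM in ventral cells (SD, n = 6). Efnb1 ranged from 30.4 to 50.04 CPM in dorsal cells and from 6.75 to 10.5 CPM in ventral cells, and its log2 difference was 2.42 (SE 0.175, edgeR adjusted p = 5.08e-27). Its paralog Efnb2 was at 95.2 ± 24.3 CPM in dorsal and 20.01 ± 3.26 CPM in ventral cells, with values from 50.7 to 118.7 against 15.97 to 24.1. The log2 difference of Efnb2 was 2.32 (SE 0.115, edgeR adjusted p = 8.27e-44). For these 3 genes no dorsal library overlapped a ventral one.

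Ephb1, a receptor for ephrin-B ligands, was at 5.75 ± 4.04 CPM in dorsal and 14.4 ± 3.44 CPM in ventral cells (SD, n = 6). It was lower on the dorsal side in 6 of 6 libraries, although the ranges overlapped (log2 difference -1.44, SE 0.313, edgeR adjusted p = 0.000201). The ventral side, where Ephb1 was high, helped it pass the filter on low counts, so this p-value is descriptive. Dorsal sums held between 242702 and 1347804 UMIs of all genes, so the dorsal values of Ephb1 rest on few UMIs. Ephb2 was at 48.7 ± 12.9 against 70.7 ± 13.8 CPM and was also lower on the dorsal side in every library (log2 difference -0.54, SE 0.114, edgeR adjusted p = 0.000153). Ephb3 was too low to be tested, with class means between 0.603 and 1.56 CPM. The ligand genes Efnb1 and Efnb2 and the receptor genes Ephb1 and Ephb2 were thus higher on opposite sides.

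Smaller dorsal excesses were measured for Slit2, a repellent of ganglion cell axons, at 48.6 against 29.0 CPM and for Sema6a, a transmembrane semaphorin, at 58.6 against 36.7 CPM. Their log2 differences were 0.65 (SE 0.135, edgeR adjusted p = 1e-04) and 0.62 (SE 0.117, edgeR adjusted p = 1.56e-05), with no overlap between sides. Epha5, Epha4 and Epha7 were also higher in dorsal cells, by 0.45, 0.59 and 0.98 on the log2 scale. When the sides were instead defined by Aldh1a1 (dorsal) and Aldh1a3 (ventral), genes of retinoic acid synthesis, 9 of 35 members tested were called, against 8.24% of all genes, and 7 of them were called in both settings. Unc5b was then at 39.5 ± 14.03 against 6.15 ± 2.91 CPM, Efnb1 differed by 2.25, Efnb2 by 1.79, Ephb1 by -1.24 and Ephb2 by -0.38 on the log2 scale. Slit2 at 0.15 (edgeR adjusted p = 0.404), Sema6a at 0.17 (0.221) and Epha4 at 0.26 (0.206) were not called in that setting. Efna5 was higher ventrally (log2 difference -0.47) and Efnb3 higher dorsally (0.30) in that setting alone. Cells with Tbx5 had a summed level of 186 CPM for 9 ganglion cell markers (range 115 to 260), against 104 CPM (69.9 to 139) in cells with Vax2. Tbx5 itself had a mean of 25 CPM in ganglion-labelled cells and 6.29 CPM in progenitors, and Vax2 had 63.7 and 94.2 CPM. The part of ganglion cell content in these differences was not tested. Without the library labelled double null replicate 1, 9 members were called between Tbx5 and Vax2 cells, and with shared barcodes left out 9 were called.

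The sequences just upstream of the genes with the clearest side differences are shown because these genes moved together by position. They are the 250 bases before the RefSeq transcription start (GRCm38.p6), printed 5' to 3' on the strand of the gene, and none overlaps an annotated exon of GENCODE M21. For Efnb1 the RefSeq start lies upstream of the GENCODE start of the gene, at chrX:99136130, and no GENCODE transcript held the bases after the RefSeq start that were checked, so this window may not adjoin the start in use. Capitals mark matches on either strand to 1 of 2 cores. These are the T-box core GGTGTG, for the family of Tbx5, and the homeodomain core TAATTA, for the class of Vax2.
Unc5b, chr10:60831582-60831831, minus strand: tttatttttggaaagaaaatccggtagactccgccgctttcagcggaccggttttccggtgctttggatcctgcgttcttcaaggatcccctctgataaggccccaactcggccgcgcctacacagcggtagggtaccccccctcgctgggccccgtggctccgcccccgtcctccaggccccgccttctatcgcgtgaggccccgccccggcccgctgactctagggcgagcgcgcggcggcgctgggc
Efnb1, chrX:99135811-99136060, plus strand: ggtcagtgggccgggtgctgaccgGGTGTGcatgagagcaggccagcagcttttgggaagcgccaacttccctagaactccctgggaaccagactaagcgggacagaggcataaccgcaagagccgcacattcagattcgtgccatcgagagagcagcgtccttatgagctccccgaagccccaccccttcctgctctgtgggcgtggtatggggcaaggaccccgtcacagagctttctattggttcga
Efnb2, chr8:8661243-8661492, minus strand: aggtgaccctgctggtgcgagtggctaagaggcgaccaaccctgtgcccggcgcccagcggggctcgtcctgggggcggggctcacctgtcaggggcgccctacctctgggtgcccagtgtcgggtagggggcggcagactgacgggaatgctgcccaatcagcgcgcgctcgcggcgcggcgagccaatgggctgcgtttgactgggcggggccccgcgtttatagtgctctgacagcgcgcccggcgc

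The Efnb1 window held 1 match to the T-box core and none to the homeodomain core. The windows of Unc5b and Efnb2 held neither. Among 32851 RefSeq windows of this length, 16.3% held the T-box core and 4.84% the homeodomain core. Such a match is a description of letters and no evidence of binding. The windows had a GC content of 66.8% for Unc5b, 60% for Efnb1 and 72% for Efnb2, against a median of 52.4%.

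**Figure D1:**
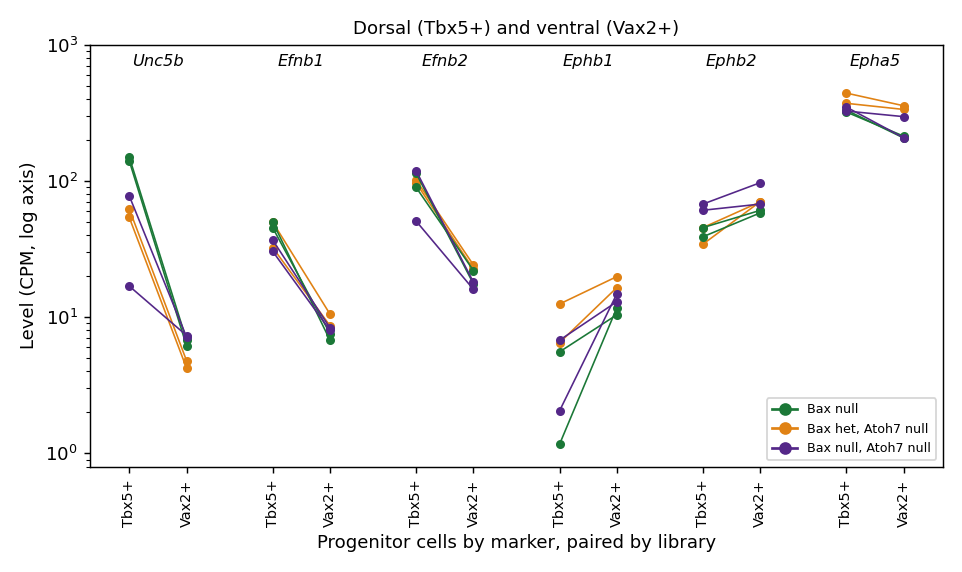
Levels in retinal progenitor cells by position, in TMM-scaled CPM on a log axis, with 1 point for each library and side, a line joining the 2 sides of a library and colours for the genotype groups. Unc5b, Efnb1, Efnb2 and Epha5 lay higher and Ephb1 and Ephb2 lower in Tbx5 cells than in Vax2 cells of every library.

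The members were then compared between cell classes. The classes were made by the authors from the expression of these same cells, so differences between classes are descriptions and carry no test. Levels are CPM within a class, scaled with TMM factors (trimmed mean of M values), as the mean of 6 libraries. A UMI marks 1 end of each molecule, so levels were not divided by transcript length. Of the 73 entries, 34 had a mean of 10 CPM or more in at least 1 class and 39 did not, although some of the 39, such as Efna3, Sema6d and Robo3, exceeded 10 CPM in both libraries of a genotype group. Among the 34, the class with the highest mean was ganglion cells for 11, horizontal cells for 8, retinal progenitor cells for 6, cones for 6 and neurogenic cells for 3. In 14 of the 34, all 6 libraries of the highest class lay above all 6 of the next class. The same shares over all genes are not given here, so these counts do not set the members apart. The 5 entries Robo4, Plxna4os2, Plxna4os3 and 2 identifiers of Ntn5 had 0 of 243604794 UMIs, which allows a level of up to 0.0123 CPM by counting error alone.

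Among the ligands, Sema3a, a secreted repellent, was highest in ganglion cells. Its level there was 39.3 CPM, with 47.0 and 52.9 in Bax het, 26.8 and 25.5 in Bax-only null, and 38.0 and 45.3 in double null. In no other class did its mean exceed 2.11 CPM. Its receptor subunit Nrp1 was also highest in ganglion cells, at 136 CPM with a range of 120.8 to 152.9, against 18.8 CPM in cones as the next class. A ligand and a subunit of its receptor complex were thus both highest in the same class.

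Slit2 was measured in every class, from 28.2 CPM in progenitors through 33.1 in neurogenic cells, 65.0 in ganglion cells and 69.0 in cones to 83.5 in horizontal cells. The last 3 of these overlapped between libraries. Its receptor Robo2 was far higher in cones, at 486 CPM, with libraries from 346.1 to 607.4, than in ganglion cells at 150 CPM, horizontal cells at 117, neurogenic cells at 82.7 and progenitors at 43.6. All cone libraries lay above all ganglion cell libraries. The class means of Slit1 stayed below 12 CPM, with 0.294 CPM in progenitors and between 6.60 and 11.9 CPM in the 4 other classes.

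Among the ephrins, Efna5 was the ligand gene with the most UMIs, at 195 CPM in horizontal cells, 126 in ganglion cells, 112 in cones, 101 in progenitors and 98.2 in neurogenic cells, and these classes overlapped. Efnb1 was highest in cones at 38.6 CPM (28.3 to 53.8), above progenitors at 17.9 CPM without overlap. Efnb3, another transmembrane ephrin, was highest in progenitors at 39.99 CPM, above horizontal cells at 23.9 without overlap. Efnb2 was at 41.6 CPM in progenitors and 35.2 CPM in ganglion cells, which overlapped. Efna3 had a mean of 7.64 CPM in ganglion cells and 1.11 CPM in progenitors, and its genotype groups differed in ganglion cells.

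Of the other semaphorins, Sema6a was highest in ganglion cells at 68.4 CPM, above progenitors at 37.5. Sema5a at 10.8 CPM and Sema4d at 10.0 CPM were highest in progenitors, above the next class by 2.12 and 2.1 times, without overlap. Sema5b was also highest in progenitors but reached only 3.14 CPM.

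Among the receptors, Epha5 had the most UMIs in 4 of the 5 classes, with 529 CPM in ganglion cells, 454 in horizontal cells, 342 in progenitors, 325 in cones and 263 in neurogenic cells. These classes overlapped. Epha8 was highest in cones, at 42.3 CPM with libraries from 33.5 to 49.0, against 1.98 CPM in horizontal cells, a ratio of 21.4. Epha10 was shared by horizontal cells at 21.3 CPM and cones at 15.3 CPM. Epha3 was highest in neurogenic cells at 48.9 CPM and in ganglion cells at 37.0 CPM. Ephb2 had class means between 30.8 CPM in cones and 59.1 CPM in progenitors.

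Among the netrin receptors, Unc5c was highest in ganglion cells at 26.7 CPM (21.7 to 30.2), against 8.27 CPM in horizontal cells. Unc5b showed another distribution, with 22.5 CPM in horizontal cells, 16.2 in progenitors and 2.6 in ganglion cells. Dcc was low in progenitors at 1.0 CPM and stood at 14.4 in neurogenic cells, 22.5 in ganglion cells, 22.9 in cones and 33.0 in horizontal cells. The netrin genes were scarce, and Ntn1 had its highest class mean, 1.25 CPM, in progenitors, where its genotype groups differed. Of the plexins, Plxna2 was highest in horizontal cells at 48.7 CPM (40.1 to 58.0), against 11.7 CPM in cones. Plxnb2 at 47.7 CPM and Plxnc1 at 17.6 CPM were highest in cones, and Plxna4 had no class mean above 2.79 CPM.

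**Figure D2:**
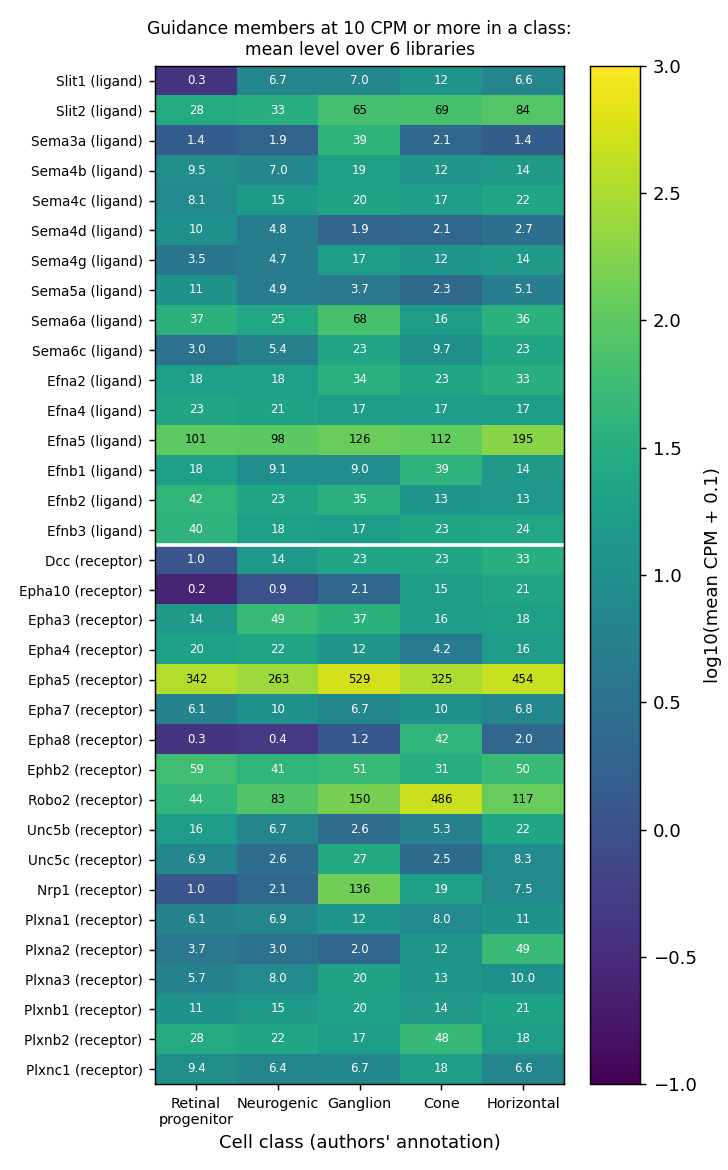
Heat map of the mean level over 6 libraries (TMM-scaled CPM, colour on a log scale, values printed in the cells) of the 34 members whose mean reached 10 CPM in at least 1 class, ordered by family, with 1 column per class. Sema3a, Nrp1 and Unc5c stand out in ganglion cells, Epha8 and Robo2 in cones, and Plxna2 in horizontal cells.

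Genotypes were compared within a class on UMI sums per library. The pair double null against Bax-only null differs in Atoh7, with Bax absent by label from both. In ganglion-labelled cells, Robo3, Epha3, Efna5 and Sema3a were higher and Ephb1, Sema6d, Efna3, Plxna1 and Dcc were lower without Atoh7. Of 36 members tested with the edgeR quasi-likelihood test, 12 were higher and 7 were lower at an adjusted p under 0.05, or 19 in all. This share is near the 52.7% of all 10586 genes that were called in this comparison (26.2% higher and 26.5% lower), so the count itself does not set the members apart. The median log2 difference was 0.08 over the members tested and 0.02 over all genes.

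Robo3, a divergent Robo receptor known from axons that cross the midline, was at 1.59 and 1.68 CPM in Bax-only null. It was at 14.5 and 12.4 CPM in double null and at 8.63 and 11.8 CPM in Bax het. The 4 libraries without Atoh7 thus lay above both Bax-only null libraries, and the log2 difference between double null and Bax-only null was 3.02 (SE 0.289, edgeR adjusted p = 3.09e-06). Robo3 passed the filter on low counts only through the libraries without Atoh7, where it was high, so this p-value is descriptive.

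Epha3, a receptor of ephrin-A ligands, was at 10.8 and 8.63 CPM in Bax-only null, 45.6 and 49.0 in double null, and 52.2 and 55.6 in Bax het. Its log2 difference was 2.28 (SE 0.147, edgeR adjusted p = 9.58e-08). Efna5 was at 68.3 and 52.7 CPM in Bax-only null, 147.7 and 153.2 in double null, and 167.3 and 169.3 in Bax het. All 4 Atoh7 null libraries again lay above both Bax-only null libraries, with a log2 difference of 1.31 (SE 0.117, edgeR adjusted p = 1.67e-06).

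Epha5 was at 338.6 and 336.6 CPM in Bax-only null, 560.7 and 456.7 in double null, and 763.5 and 716.7 in Bax het. The log2 difference between the first 2 of these groups was 0.59 (SE 0.116, edgeR adjusted p = 0.000955), and no libraries of the 3 groups overlapped. For Sema3a, whose values by library are given above, it was 0.67 (SE 0.131, edgeR adjusted p = 0.000942), and for Efnb2, at 21.2 and 23.7 against 40.03 and 30.4 CPM, it was 0.65 (SE 0.151, edgeR adjusted p = 0.00289). The Slit receptor Robo2, at 120.9 and 123.9 CPM in Bax-only null and 155.6 and 173.0 in double null, differed by 0.42 (SE 0.11, edgeR adjusted p = 0.00613), and its ligand Slit2 by 0.34 (SE 0.116, edgeR adjusted p = 0.0249). Epha4, a receptor of both ephrin classes, differed by 0.77. The other higher members were Ephb6, Sema4b and Sema6c, with log2 differences of 2.08, 0.53 and 0.49. Ephb6 passed the filter on low counts only through libraries without Atoh7, where it was high.

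Ephb1 was at 10.65 and 9.10 CPM in Bax-only null, 1.73 and 2.19 in double null, and 1.44 and 2.96 in Bax het. The log2 difference was -2.32 (SE 0.354, edgeR adjusted p = 0.000142), and both Bax-only null libraries lay above the other 4. Ephb1 passed the filter on low counts in this class only through Bax-only null, where it was high, so this p-value is descriptive. Sema6d, a transmembrane semaphorin, was at 16.4 and 18.9 CPM in Bax-only null and at 2.40 to 5.52 CPM in the other 4, a log2 difference of -2.11 (SE 0.295, edgeR adjusted p = 7.01e-05). Efna3 was at 13.5 and 15.3 CPM in Bax-only null and between 2.30 and 5.18 CPM in the other 4, a log2 difference of -1.53 (SE 0.264, edgeR adjusted p = 0.000374).

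Plxna1, a coreceptor of class 3 semaphorins, was at 18.6 and 22.2 CPM in Bax-only null and between 6.58 and 11.8 CPM in the other 4, a log2 difference of -1.48 (SE 0.23, edgeR adjusted p = 0.00016). The netrin receptor Dcc was at 31.6 and 28.5 CPM in Bax-only null, 22.4 and 15.0 in double null, and 19.7 and 18.1 in Bax het. The log2 difference of Dcc was -0.68 (SE 0.171, edgeR adjusted p = 0.0051). Efna4 and Ephb2 were lower by smaller amounts, at -0.69 and -0.34. Nrp1 and Unc5c, which were highest in ganglion cells without overlap with the next class, differed by 0.06 and -0.08 and were not called. Of the other tested receptors with their highest class mean in ganglion cells, Epha5, Plxna1 and Robo3 were called, and Plxna3 and Robo1 were not.

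**Figure D3:**
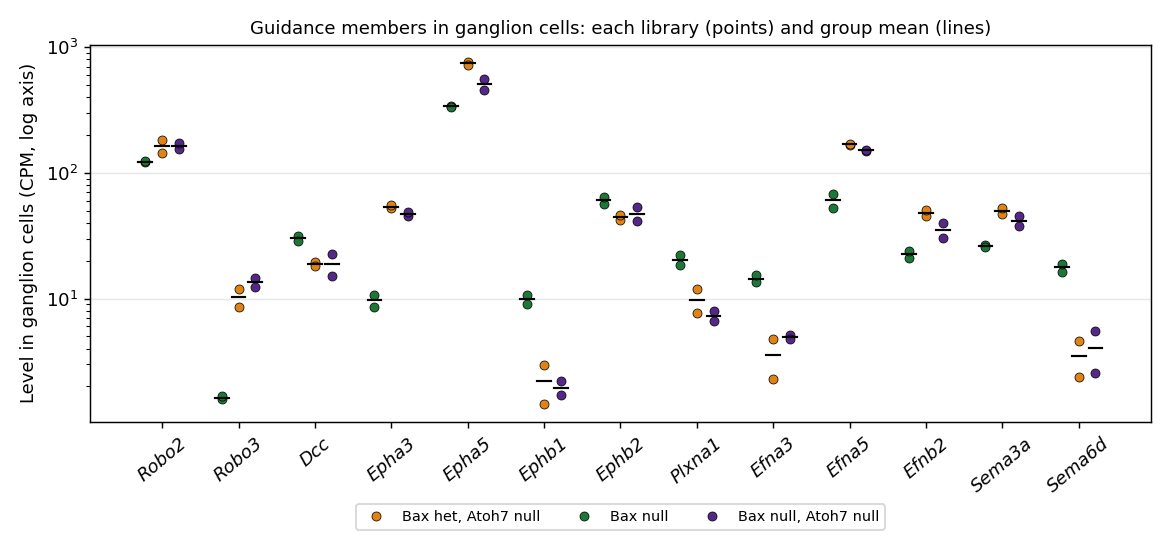
Levels of 13 members in ganglion-labelled cells (TMM-scaled CPM, log axis), with a point for each library, a bar for the group mean and a colour per group. Robo3, Epha3 and Efna5 were lowest in the 2 libraries of the Bax-only null group, and Ephb1, Efna3 and Sema6d were highest there.

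Markers of other cells moved with these groups in the ganglion-labelled cells. The 9 ganglion cell markers, all detected, summed to 11600 and 12100 CPM in Bax-only null, 7980 and 9050 in Bax het, and 8830 and 10600 in double null. The 8 neurogenic markers summed to 1030 and 991 CPM in Bax-only null and to between 1720 and 2130 CPM in the other 4. The 5 horizontal cell markers summed to 531 and 523 CPM in Bax-only null and to between 1270 and 1530 CPM elsewhere, most of it from Onecut2, at 485 and 475 CPM in Bax-only null and 1080 to 1330 CPM elsewhere. Tfap2b was at 10 and 9.26 CPM in Bax-only null and 97.1 to 132 CPM elsewhere. Prox1 was at 17.9 and 18.6 CPM in Bax-only null and 48.6 to 61.1 CPM elsewhere. Onecut1, Ptf1a and Prdm13 overlapped between Bax-only null and the other libraries, and Lhx1 was under 1 CPM in all libraries. The 8 progenitor markers summed to 1770 and 1650 CPM in Bax-only null and to between 1990 and 2460 CPM elsewhere. The 4 red cell genes summed to 881 and 721 CPM in Bax-only null and to between 1.32 and 135 CPM elsewhere. The 6 endothelial markers summed to 9.45 and 9.35 CPM in Bax-only null and to between 24.1 and 46 CPM elsewhere, mostly from Kdr, while Cdh5 was at 0 in all libraries. The part of these differences in the members' values was not tested. Without the library labelled double null replicate 1, 9 members were higher and 10 lower, of which 15 were among the 19, and with shared barcodes left out the same 19 were called.

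Bax het differed from Bax-only null in both genes and shares the Bax-only null libraries with the comparison above. In ganglion-labelled cells 12 members were higher and 8 lower in Bax het (20 of 36, against 50% of all genes). The log2 difference was 2.66 for Robo3, 2.48 for Epha3, 1.48 for Efna5 and 1.13 for Epha5. It was -2.25 for Sema6d, -2.11 for Efna3, -2.07 for Ephb1, -1.01 for Plxna1, -0.72 for Plxnb1 and -0.68 for Dcc. Epha7 was higher by 1.32 (edgeR adjusted p = 0.000963).

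The groups double null and Bax het differ by label in Bax, with Atoh7 absent from both, but the Bax level of the library labelled double null replicate 1 went against its label. The Bax-only null libraries enter this comparison through the spread and filter shared by the fit of all 6 libraries. Among ganglion-labelled cells only Epha5 was called, 1 of 36 members, against 2.34% of all genes. Its values of 560.7 and 456.7 CPM in double null lay below 763.5 and 716.7 CPM in Bax het, a log2 difference of -0.54 (SE 0.117, edgeR adjusted p = 0.0293). With shared barcodes left out its adjusted p was 0.0856, without Bax het replicate 1 or 2 it was 0.187 or 0.157, and without Bax-only null replicate 1 or 2 it was 0.0891 or 0.0882. Fitted on the 4 libraries compared alone it was 0.11, and without a filter on low counts it was 0.0551. The call held with DESeq2 (0.00915), RLE size factors (0.0302), a replicate block (0.01), thinned counts (0.0341), and without cells above the 95th percentile of UMIs (0.0169) or under 1000 UMIs (0.0419). The log2 difference was -0.69 without the library labelled double null replicate 1 (edgeR adjusted p = 2.86e-05, 2 members called) and -0.40 without replicate 2 (edgeR adjusted p = 0.0166). Either way double null then had 1 library, which the fit assumes to vary like those of the other groups, so these p-values say nothing about its own spread.

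In neurogenic cells none of 43 members was called between these groups by edgeR or by DESeq2 (1.77% of all genes were called by edgeR), although 5 had an unadjusted p under 0.05. In progenitors none of 55 was called by edgeR and 1 by DESeq2 (2.01% of all genes by edgeR), and 9 had an unadjusted p under 0.05. Epha5 was lower in double null in both classes by 0.36 and 0.37 on the log2 scale, with adjusted p-values of 0.187 and 0.112.

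In neurogenic cells, 8 of 43 members were higher and 12 lower in double null than in Bax-only null, or 20 in all, against 47.3% of all genes (23.5% higher and 23.8% lower). Epha3 was at 24.0 and 20.2 CPM in Bax-only null, 52.1 and 59.96 in double null, and 67.4 and 69.5 in Bax het, a log2 difference of 1.34 (SE 0.121, edgeR adjusted p = 5.2e-06). Robo2 was at 53.1 and 52.4 CPM in Bax-only null, 101.9 and 107.8 in double null, and 96.0 and 85.0 in Bax het, a log2 difference of 0.99 (SE 0.098, edgeR adjusted p = 1.03e-05). For both genes the 2 Bax-only null libraries lay below the other 4. The 8 neurogenic markers moved with these groups, with sums of 3390 and 2990 CPM in Bax-only null and 5780 to 6930 CPM elsewhere, as did the ganglion cell markers, with 308 and 303 CPM against 666 to 860 CPM. Their part in the result was not tested.

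Epha7, a receptor of ephrin-A ligands, was higher by 1.12, Efna5 by 0.61, Dcc by 0.57 and Slit2 by 0.51. The call of Dcc was lost without the library labelled double null replicate 1. Lower members included Plxna1 (-1.09), Unc5b (-0.95), Efnb3 (-0.69), Efna4 (-0.52) and Sema6a (-0.52). In Bax het against Bax-only null, 7 were higher and 12 lower (19 of 43, against 47.1% of all genes). Without the library labelled double null replicate 1, 16 members were called against Bax-only null, and with shared barcodes left out 18 were called. The count against Bax-only null fell to 12 without Bax-only null replicate 2, in double null and in Bax het alike.

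In retinal progenitor cells, 10 of 55 members were higher and 15 lower in double null than in Bax-only null, or 25 in all, against 53.9% of all genes (26.8% higher and 27.1% lower). Robo2 was at 24.8 and 27.1 CPM in Bax-only null, 59.3 and 55.4 in double null, and 49.5 and 45.4 in Bax het, a log2 difference of 1.15 (SE 0.087, edgeR adjusted p = 1.16e-05). Epha3 was at 5.52 and 6.29 CPM in Bax-only null and between 16.1 and 21.3 CPM in the other 4, a log2 difference of 1.503 (SE 0.149, edgeR adjusted p = 5.01e-05). Efna5 was at 72.4 and 67.2 CPM in Bax-only null and between 111.2 and 123.0 CPM in the other 4, a log2 difference of 0.71 (SE 0.0822, edgeR adjusted p = 0.000113). Each of these genes was thus lower in the 2 Bax-only null libraries here too. Summed neurogenic markers in progenitors were at 419 and 400 CPM in Bax-only null and 686 to 743 CPM elsewhere, and ganglion cell markers at 84.2 and 78 CPM against 121 to 152 CPM, and their part was not tested.

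Ephb2 and Epha5 were higher by 0.44 and 0.32. The dorsal receptor Unc5b was at 23.8 and 26.0 CPM in Bax-only null, 15.1 and 11.5 in double null, and 11.1 and 9.61 in Bax het, a log2 difference of -0.89 (SE 0.132, edgeR adjusted p = 0.000453). The dorsal marker Tbx5 was at 4.79 and 5.19 CPM in Bax-only null, 7.66 and 8.47 in double null, and 6.58 and 5.08 in Bax het. Cells with Tbx5 and no Vax2 were 2.28 and 3.08% of progenitors in Bax-only null and 1.16 to 1.83% in the other 4, whose cells held fewer UMIs. The part of the dorsal share in the Unc5b difference was not tested. Plxnb1, Sema6a and Efnb3 were lower by 0.55, 0.43 and 0.22. In Bax het against Bax-only null, 8 were higher and 16 lower (24 of 55, against 53.1% of all genes). Without the library labelled double null replicate 1, 22 members were called against Bax-only null, and with shared barcodes left out 24 were called, without Efnb3.

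Ntn1, the secreted netrin known at the optic disc where axons leave the eye, was at 2.91 and 3.82 CPM in progenitors of Bax-only null. It was at 0.157 and 0.173 CPM in double null and at 0.046 and 0.413 CPM in Bax het. The log2 difference between double null and Bax-only null was -4.32 (SE 0.491, edgeR adjusted p = 0.000105), although every value was under 10 CPM. Ntn1 passed the filter on low counts only through the Bax-only null libraries, where it was high, so this p-value is descriptive. In Bax-only null, 158 of the 199 Ntn1 UMIs of progenitors (79.4%) lay in the 289 cells with a UMI of Pax2, which were 2.48% of 11633 cells. Pax2 encodes a transcription factor of the optic disc and stalk. Ntn1 was at 63.9 and 68 CPM in those cells and at 0.506 and 0.585 CPM in the others. Progenitors of Bax het held 9 Ntn1 UMIs, of which 0 lay in cells with Pax2, and those of double null held 7, of which 4 did, or 15.2 and 31.4 CPM in the cells with Pax2 of its 2 libraries. Cells with Pax2 were 0.365 to 0.452% of progenitors in these 4 libraries, between 24 and 43 cells each. A progenitor had a median of 5869 and 6977 UMIs in Bax-only null and 1713 to 2836 in the other 4, and the part of this depth difference in the shares of cells with Pax2 was not tested. Pax2 itself was at 6.3 and 7.52 CPM in Bax-only null, 1.63 and 1.43 in Bax het, and 2.27 and 2.06 in double null. A smaller number of optic disc cells in a sample and a lower level per cell cannot be told apart here.

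Differences that ran through a whole library were visible among the members. Epha3, Robo2, Efna5 and Ephb6 were lower in both Bax-only null libraries than in each of the other 4 in all 5 classes, and Sema3f was higher in all 5. The share of all genes with such a pattern is not given here, so it cannot be read as particular to these members. Ephb6 and Sema3f were named after their values were seen. The difference between ganglion-labelled cells and progenitors was therefore also compared within each library, where a shift shared by both classes cancels. Of 63 members tested for this within-library difference, 9 were higher and 5 lower in double null than in Bax-only null, against 15.7% of all 13670 genes (8.15% higher and 7.53% lower). In Bax het against Bax-only null, 9 were higher and 7 lower (16 of 63, against 15.2%). Values by library are the log2 ratio of ganglion cells to progenitors, with 1 CPM added to each.

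The ratio of Sema3a was 3.21 and 2.95 in Bax-only null, 4.13 and 4.51 in double null, and 4.39 and 4.79 in Bax het. Its ganglion cell bias was thus larger in all 4 libraries without Atoh7, and the fitted log2 difference of double null from Bax-only null was 1.60 (SE 0.273, edgeR adjusted p = 1.92e-05). Part of this lay in progenitors, where Sema3a was at 1.895 and 2.265 CPM in Bax-only null and 1.176 and 0.98 in double null. The log2 difference of Sema3a was -0.93 in progenitors and 0.67 in ganglion-labelled cells. Efna5 changed sign, from -0.15 and -0.43 in Bax-only null to 0.27 and 0.40 in double null and 0.37 and 0.48 in Bax het. Its difference was 0.62 (SE 0.0861, edgeR adjusted p = 3.21e-07). Ephb1 changed sign in the other direction, from 0.32 and 0.28 in Bax-only null to -2.06 and -1.60 in double null and -2.46 and -1.82 in Bax het. Its difference was -2.63 (SE 0.366, edgeR adjusted p = 3.73e-07). In Bax-only null, Ephb1 was therefore at like levels in ganglion-labelled cells and progenitors, and in the other 4 libraries it was lower in ganglion-labelled cells.

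Robo2 went against its direction within classes. Its ratio was 2.17 and 2.07 in Bax-only null, 1.33 and 1.57 in double null, and 1.78 and 1.57 in Bax het, a difference of -0.70 (SE 0.0863, edgeR adjusted p = 2.27e-08). Robo2 was lower in Bax-only null in both classes, and more so in progenitors. Ephb2 had ratios of 0.03 and 0.29 in Bax-only null and between -0.60 and -0.31 in the other 4, a difference of -0.76 (SE 0.116, edgeR adjusted p = 2.41e-06). Sema6a, which was lower in progenitors and not called in ganglion-labelled cells, differed by 0.69 (SE 0.109, edgeR adjusted p = 4.29e-06).

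Without the library labelled double null replicate 1, 9 members were called in the within-library comparison with Bax-only null, of which 8 were among the 14. The calls lost were those of Nrp2, Epha4, Slit2, Sema4b, Efnb2 and Dcc. With shared barcodes left out 15 were called, including all 14. No member was called between double null and Bax het by edgeR or DESeq2 (0.102% of all genes by edgeR), and 7 had an unadjusted p under 0.05.

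**Figure D4:**
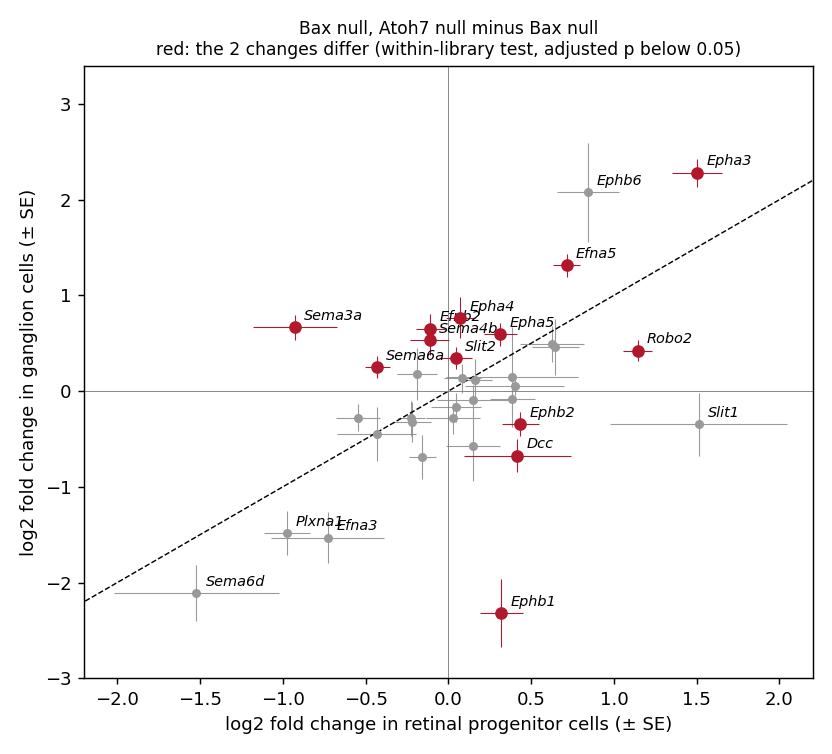
Log2 difference of double null minus Bax-only null in ganglion-labelled cells (vertical axis) against that in progenitors (horizontal axis), with bars of 1 SE, for the 35 members tested in both and the 13 with a called within-library difference in red. The dashed line marks equal differences, with Sema3a above it and Ephb1 and Robo2 below.

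Other genes of axon guidance, a list of 80 adhesion molecules, receptors, cytoskeletal effectors and transcription factors, gave the setting. In ganglion-labelled cells, 21 of the 68 tested were higher and 26 lower in double null than in Bax-only null, against 52.7% of all genes called. The transcription factor Zic2 was at 5.997 and 5.27 CPM in Bax-only null, 31.4 and 45.3 in double null, and 38.3 and 42.7 in Bax het, a log2 difference of 2.76 (edgeR adjusted p = 2.97e-07). Zic2 was lower in Bax-only null in neurogenic cells and progenitors as well, with log2 differences of 1.89 and 2.35. In ganglion-labelled cells Zic2 and Ephb1 therefore differed in opposite directions. Islr2, a membrane protein of growing ganglion cell axons, was at 204 and 218.1 CPM in Bax-only null and between 31.2 and 44.9 CPM in the other 4 (log2 difference -2.36, edgeR adjusted p = 5.5e-09). The adhesion molecule Cntn2 fell by 1.34 and the repulsive guidance molecule Rgmb by 1.96 on the log2 scale, and Reln rose by 1.40. In progenitors, 23 of the 72 tested were higher and 23 lower (53.9% of all genes called), and in neurogenic cells 17 of 71 were higher and 21 lower (47.3%). The within-library difference was higher for 12 and lower for 18 of 78 (15.7%). Between dorsal and ventral progenitors, 7 of 53 were higher and 4 lower on the dorsal side (11.3%). Tenm3, a teneurin known for retinal wiring, was at 17.6 ± 4.80 CPM in dorsal and 87.7 ± 19.3 CPM in ventral cells (SD, n = 6), a log2 difference of -2.45 (SE 0.145, edgeR adjusted p = 1.73e-35). Lrrc4c, a netrin-G ligand, ran the other way at 25.9 against 9.17 CPM (log2 difference 1.69).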

How the data were processed

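The deposited matrix held raw UMI counts per gene and cell made by the authors, with Cell Ranger 1.2.1 and the mm10 build named in the submitters' processing notes. Cell types were those of the authors' deposited cell table, and the matrix sums equalled its totals in all 67050 cells. The 93128 cells of that table included 2 further libraries outside the samples of this series, not used in any step. The authors' filters on cells and treatment of doublets were not given in the sources used here. Free RNA in droplets was not corrected for.

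Counts were summed per library and class and tested with edgeR 4.0.16 in R 4.3.3 (TMM, filterByExpr, quasi-likelihood F test, two-sided), with all 6 libraries in 1 fit and Benjamini-Hochberg adjustment over all genes tested. Genes with an adjusted p under 0.05 are described as called. The SE is the log2 difference divided by the square root of F. Within-library tests had the library as a block and a class by group interaction, and position tests had the library as a block. A member passed the filter on low counts in 36 of 73 cases in ganglion cells, 43 in neurogenic cells and 55 in progenitors, and 17 members were tested in no class. Class sums ranged from 1913889 to 10906998 UMIs in ganglion-labelled cells. Members were placed in GENCODE M21 (71 of 73), and 57 had a RefSeq upstream window.

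Members and lists were chosen with earlier results of these data known. The text names a fixed retinal set, the 5 members most biased to a class, the 5 of highest level in it, and up to 5 called members per direction with 10 CPM in the higher group and no overlap of libraries. Others were named after their values were seen. Fold changes of the fits are on the log2 scale. Alternatives were RLE size factors, DESeq2 1.42.0, no filter, a replicate block, only the 4 libraries compared, counts thinned to the smallest total, cells above the 95th percentile of UMIs or under 1000 UMIs left out, other position markers, and each library left out, where the group with 1 library is assumed to vary like the others. Leaving out shared barcodes was chosen after seeing the data. One planned position comparison is not reported here. The models were tested on simulated data.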

Additional observations from a re-analysis of the deposited data

Results flagged for a closer look

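The difference between genotypes was not the same in ganglion-labelled cells as in retinal progenitor cells for several members, by the edgeR interaction of class and group at an adjusted p under 0.05. Each value is the log2 difference in ganglion-labelled cells minus that in progenitors. For double null minus Bax-only null it was 1.60 for Sema3a, 0.80 for Epha3, 0.79 for Efnb2, 0.72 for Epha4, 0.69 for Sema6a, 0.68 for Sema4b, 0.62 for Efna5, 0.32 for Slit2 and 0.30 for Epha5. It was -2.63 for Ephb1, -2.25 for Nrp2, -1.03 for Dcc, -0.76 for Ephb2 and -0.70 for Robo2. Among these, the values of Nrp2, Epha4, Slit2, Sema4b, Efnb2 and Dcc were no longer called without the library labelled double null replicate 1.

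For Bax het minus Bax-only null, which shares the Bax-only null libraries, it was 1.93 for Sema3a, 1.49 for Ephb6, 0.90 for Efnb2, 0.81 for Epha3, 0.73 for Epha4, 0.72 for Efna5, 0.48 for Slit2, 0.45 for Epha5 and 0.43 for Sema6a. It was -4.39 for Nrp2, -3.77 for Epha8, -2.79 for Ephb1, -1.40 for Dcc, -1.32 for Efna3, -0.59 for Ephb2 and -0.47 for Robo2. Nrp2 and Epha8 were not tested in ganglion-labelled cells alone. Nrp2 was there at 5.75 and 3.83 CPM in Bax-only null and between 0 and 1.04 CPM in the other 4. Epha8 did not exceed 2.07 CPM there in any library. In progenitors Epha8 was at 0 and 0.169 CPM in Bax-only null and 0.691 and 0.517 in Bax het, so its value rests on few UMIs. The Bax-only null libraries stood apart in depth and mitochondrial share, and the part of the marker lists of other cell types in these values was not tested.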

How the results depend on the processing

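For 95 results on named genes, 1385 alternative values were computed. Of these, 1254 kept the direction and the side of the threshold, 131 kept the direction and were no longer called, and 0 changed direction. For the 13 counts of called members, 168 of 190 alternative counts lay within 1.5 times the value reported. In the remaining cases the cause was not tested. Apart from the other position markers, the share of all genes called in each alternative setting is not given here. The alternative counts therefore do not set the members apart from other genes. With DESeq2 the count for double null against Bax-only null was 10 in neurogenic cells and 7 in the within-library difference, and the latter was 8 in Bax het against Bax-only null. Thinned to the smallest total, the within-library counts were 8 and 10. For double null against Bax het, the ganglion cell count was 0 without a filter, with only the 4 libraries compared and with shared barcodes left out, the neurogenic count was 1 without a filter, and the progenitor count was 1 with DESeq2.

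With each library left out in turn, the counts for double null against Bax het ranged from 0 to 2 in ganglion-labelled cells, from 0 to 1 in neurogenic cells and from 0 to 1 in progenitors. Against Bax-only null, the neurogenic counts ranged from 12 to 21 in double null and from 12 to 21 in Bax het. The within-library counts ranged from 9 to 13 and from 10 to 17, the lowest without the library labelled double null replicate 1 and without Bax het replicate 1.

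Replicate numbers only name the libraries. The correlation of replicate differences over genes was 0.283 to 0.395 between the 2 Atoh7 null groups and -0.173 to 0.073 in pairs with Bax-only null. With a replicate block the counts against Bax-only null were 19 and 21 in ganglion-labelled cells, 19 and 19 in neurogenic cells, and 24 and 24 in progenitors, and those between the 2 Atoh7 null groups were 1, 0 and 0. Members under a few CPM rest on few UMIs, and 39 of 73 had no class mean of 10 CPM over the 6 libraries.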
